A study of Mus musculus with 4 samples.

Results

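Imprinted genes are transcribed mainly from the chromosome of 1 parent, and 41 of them are described here across the cell classes of mouse cortex. They were listed by name, with earlier results of these data known, and found by gene symbol among the 32285 genes of the count matrices. The members fall into 17 imprinted domains, from Mkrn3 to Ube3a on chromosome 7 and from Dlk1 to Mirg on chromosome 12 down to single genes such as Gnas or Impact. Single-nucleus RNA sequencing (10x Genomics 3′ chemistry) was run on cortex of 2 Setdb1-CK-cKO mice (KO) and 2 wildtype mice (WT), with 1 library per mouse. All 4 mice were 5 months old and of the C57BL/6 strain. KO mice carried a conditional knockout of Setdb1; the sources used here give neither the driver behind the letters CK nor the deleted exons. The comparison asks whether RNA of imprinted genes differed between KO and WT nuclei of the same cell class.

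At an imprinted domain, DNA methylation set in the egg or sperm marks a control region, and the marked and unmarked parental copies then express different genes. SETDB1 is a histone methyltransferase that places H3K9 trimethylation, and in early embryos it is brought to methylated control regions with TRIM28 by KRAB zinc finger proteins such as ZFP57. Many imprinted genes are active in the brain, among them the ubiquitin ligase gene Ube3a, expressed from the maternal copy in neurons, and the necdin gene Ndn, expressed from the paternal copy. The counts described here do not separate the parental copies, so a change of level says nothing of which copy was read.

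The files held 11790 and 13902 nuclei barcodes in KO replicates 1 and 2 and 14493 and 14365 in WT replicates 1 and 2, with 38503740 and 38314394 UMIs (unique molecular identifiers, each counting 1 captured RNA molecule) in KO and 45605971 and 42780840 in WT. After filters 52038 nuclei remained, and any pair of libraries shared 43 to 58 barcodes. Of these nuclei 46964 fell into 11 classes named by their marker genes, and each class was built without the 41 members, so that no member defined a class. Excitatory neurons made up 27098 of the nuclei. Their 7 marker genes summed to 1653 and 1626 CPM (UMI counts scaled to the library total) in KO and 1783 and 1790 CPM in WT. Since these genes named the class, the sum does not check the label cortex. The labelled sexes of the KO mice did not match their RNA. KO replicate 1, labelled female, had 0.941 CPM of Xist and 81.7 CPM of the Y-linked gene Uty, whereas KO replicate 2, labelled male, had 1399 CPM of Xist and 0.0299 CPM of Uty. WT replicate 1, labelled male, had 1.65 CPM of Xist and 90.0 CPM of Uty, and WT replicate 2, labelled female, had 1024 CPM of Xist and 0.131 CPM of Uty. KO replicate 1 and WT replicate 1 therefore share a male RNA pattern and the second replicates a female one; whether the KO labels were exchanged was not tested. Ribosomal protein genes took 0.516% and 0.584% of the UMIs of excitatory neurons in KO and 0.361% and 0.425% in WT, and this share was higher in both KO libraries than in both WT libraries in all 11 classes. Setdb1 itself had 71.0 and 67.0 CPM in KO excitatory neurons and 72.7 and 67.5 CPM in WT excitatory neurons, a log2 fold change of -0.02 (adjusted p = 0.907, edgeR); whether the deleted exons lie in the counted part of the transcript is not given in the sources used here, so this level does not check the labels.

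In excitatory neurons, the main test called 2 imprinted genes higher in KO, Mkrn3 and Rtl1, and none lower. UMIs were summed per library over 5814 and 7225 KO nuclei and 6788 and 7271 WT nuclei and tested with edgeR's quasi-likelihood test over all genes. Of the 41 members 37 passed the filter on low counts, 2 were called higher at an adjusted p under 0.05, 0 lower, and 35 did not pass the test. Among all 19137 genes tested, 4.49% were called, 3.11% higher and 1.37% lower, so a share of 2 in 37 is near the background. Without adjustment 8 members had p under 0.05 as higher and 6 as lower in edgeR. The unadjusted share of all genes was not counted, so these 2 counts are not read as a result about the members. DESeq2 called 3 higher and 0 lower and limma-voom 2 higher and 0 lower. The median log2 fold change of the tested members was 0.02, and that of all tested genes was 0.01. Both KO libraries were above both WT libraries for 12 members (26.6% of all genes) and below both for 11 (25.9% of all genes), and the libraries overlapped for 14. Within the libraries of male pattern and within those of female pattern, 15 members were higher in KO in both pairs and 15 were lower in both. The share of all genes with 1 sign in both pairs was not counted, so these counts are not read as particular to the members. The labels do not pair libraries by replicate number, but same-numbered libraries share a sex-linked RNA pattern. With the replicate number as a block, 5 members were called higher and 5 lower. Leaving out KO replicate 1 gave 7 members higher and 2 lower, leaving out WT replicate 2 gave 4 higher, and leaving out KO replicate 2 gave 1 lower; in these fits the lone library of a genotype is assumed to vary like the other pair.

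**Figure D1:**
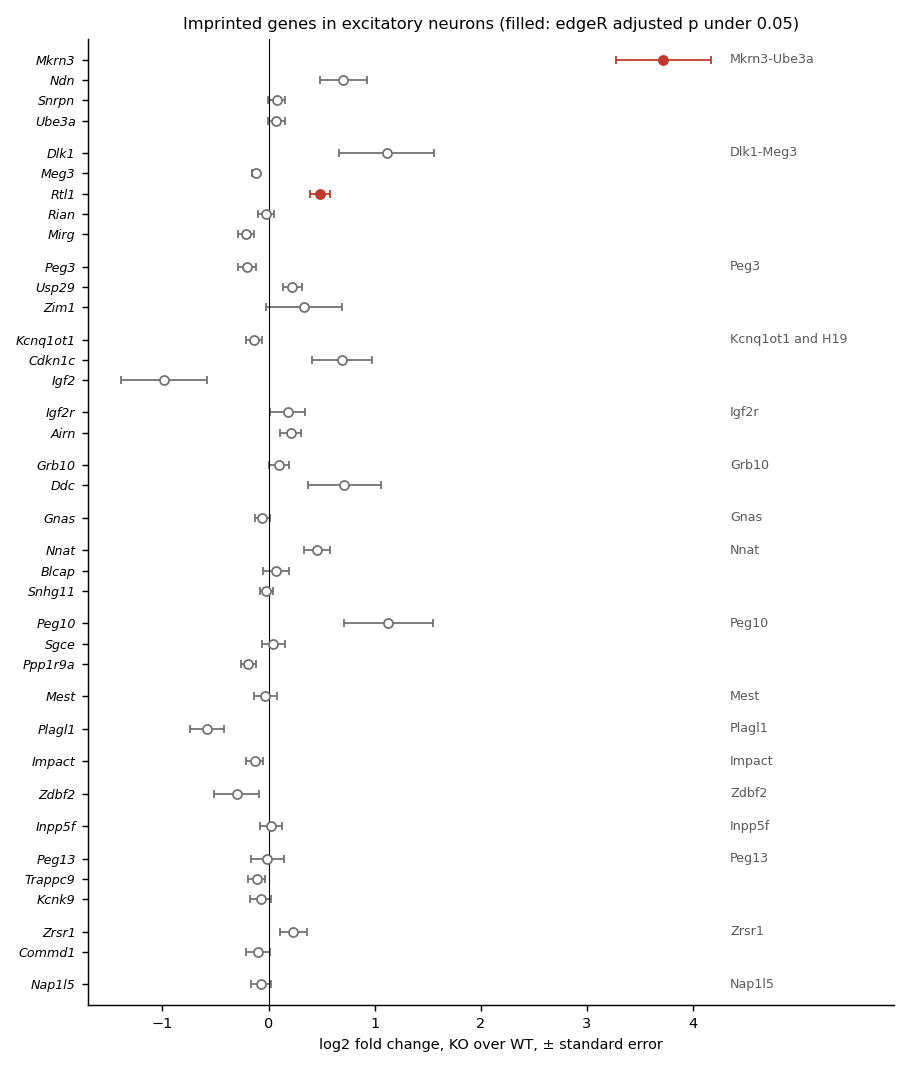
Log2 fold change (KO over WT, horizontal axis) of each tested imprinted gene in excitatory neurons, with bars of 1 standard error from edgeR; genes run down the page by domain, and filled points mark an adjusted p under 0.05. Mkrn3 at 3.72 and Rtl1 at 0.48 are the 2 filled points, and most other members lie close to 0.

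Mkrn3 encodes makorin ring finger protein 3, a RING-type ubiquitin ligase whose loss in humans causes central precocious puberty, and is expressed from the paternal copy. It lies at chr7:62417593-62420139 on the minus strand (GENCODE vM21, GRCm38), a protein-coding gene at the end of the domain that also holds Magel2, Ndn, Snrpn and Ube3a. Because it is the member with the highest fold change, the 300 bases around its annotated start (250 before and 50 after) are shown, at chr7:62420104-62420403 on the minus strand, 5′ to 3′, from RefSeq on GRCm38.p6.
Mkrn3 promoter: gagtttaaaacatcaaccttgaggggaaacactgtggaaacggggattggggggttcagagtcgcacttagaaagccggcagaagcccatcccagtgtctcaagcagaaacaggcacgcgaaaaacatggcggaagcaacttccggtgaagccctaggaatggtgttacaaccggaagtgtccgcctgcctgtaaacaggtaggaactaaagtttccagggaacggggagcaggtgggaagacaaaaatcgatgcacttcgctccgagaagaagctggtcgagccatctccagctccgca
The 6-base motif TGCCGC, the core recognised by ZFP57 when methylated, was searched on both strands and has 0 matches in this window, so no base is in capitals. It is held by 11.6% of all 32851 RefSeq promoters. For the members, 32 had a promoter entry, with 51 promoters in all, and 14 promoters of 13 members hold the motif, among them promoters of Meg3, Nnat, Igf2, Grb10, Mest and Plagl1.

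Mkrn3 was close to absent in WT excitatory neurons and low in KO. Its level was 1.24 and 1.15 CPM in KO and 0.102 and 0.0703 CPM in WT, from 32 and 29 UMIs in KO and 3 and 2 UMIs in WT. The 2 KO libraries were close to each other, and neither came near a WT library. The fitted log2 fold change was 3.72 ± 0.45 (standard error; adjusted p = 0.00239, edgeR). The ratio of summed UMIs over the library totals was 14.1, with a 95% counting interval of 5.73 to 45.0 that covers counting error only. Mkrn3 passed the filter on low counts through its KO libraries alone; with no filter on low counts its adjusted p was 0.0160. Within the pair of male RNA pattern the log2 ratio of KO to WT was 3.61, and within the pair of female pattern it was 4.03. A Mkrn3 UMI was seen in 32 of 5814 KO nuclei (0.550%) and 29 of 7225 (0.401%), against 3 of 6788 WT nuclei (0.0442%) and 2 of 7271 (0.0275%), so that each of these nuclei carried 1 UMI.

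The few Mkrn3 UMIs of other classes were also mostly in KO, but too few to be tested there. Inhibitory neurons held 10 and 8 UMIs in KO and 1 and 3 in WT, a ratio of 5.01 (95% counting interval 1.65 to 20.4). Astrocytes held 6 and 1 UMIs in KO and 0 and 1 in WT (ratio 9.94, counting interval 1.28 to 448), and oligodendrocytes 8 and 1 in KO and 2 and 1 in WT (ratio 4.33, counting interval 1.08 to 24.9). In both glial classes nearly all KO UMIs came from KO replicate 1. Over the neuron subclasses the KO UMIs were spread out, with 9 and 14 in layer 2/3 intratelencephalic (L2/3 IT) neurons of KO against 0 and 1 in WT, and 6 and 3 in layer 5 intratelencephalic (L5 IT) neurons of KO against 0 and 0 in WT. Microglia held 1 Mkrn3 UMI, in KO replicate 2, and the other 6 of the 11 classes held 0 in every library.

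Magel2, a MAGE-family gene whose product regulates ubiquitin ligases at endosomes, neighbours Mkrn3 and was too low to be tested. It had 4 and 11 UMIs in KO excitatory neurons and 1 and 0 UMIs in WT excitatory neurons, a ratio of 17.4 (95% counting interval 2.67 to 731). Every KO library was above every WT library there, on 15 UMIs in KO and 1 in WT. In the other classes Magel2 UMIs were too few to show a direction. Inhibitory neurons held 2 and 3 in KO and 4 and 0 in WT. Oligodendrocytes held 0 and 0 in KO and 0 and 2 in WT, and oligodendrocyte precursors 1 and 0 in KO and 0 and 0 in WT.

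Ndn, the gene of necdin, a MAGE-family protein that restrains growth in neurons, was higher in both KO libraries in each class that tested it, but passed the test in 1 class, oligodendrocytes. There it had 136 and 185 CPM in KO and 92.7 and 105 CPM in WT, a log2 fold change of 0.70 ± 0.16 (adjusted p = 0.0359, edgeR). It was the 1 member called higher of 31 tested in oligodendrocytes, where 0.504% of all genes were called higher and 1.02% in either direction. The call was lost without WT replicate 1 (adjusted p = 0.250) and without KO replicate 2 (adjusted p = 0.270), and DESeq2 gave it no adjusted p. In excitatory neurons Ndn had 39.6 and 58.9 CPM in KO and 23.9 and 36.6 CPM in WT, a log2 fold change of 0.70 ± 0.22 that did not pass (adjusted p = 0.116). Replicate 2 was above replicate 1 in both genotypes, so KO replicate 1 and WT replicate 2 nearly met. The log2 ratio of KO to WT was 0.73 within the male pattern and 0.69 within the female pattern. The fold change was positive in all 7 classes tested, between 0.63 in microglia and 0.98 in astrocytes. These classes come from the same libraries and are not independent repeats. An Ndn UMI was seen in 13.1% and 15.7% of KO oligodendrocyte nuclei and in 8.97% and 9.87% of WT oligodendrocyte nuclei. In excitatory neurons these shares were 15.8% and 18.3% in KO and 9.81% and 13.2% in WT. Whether RNA free in the preparation gave the Ndn UMIs of oligodendrocytes and other classes was not tested. Ribosomal protein genes took 1.51% and 1.71% of oligodendrocyte UMIs in KO and 1.12% and 1.27% in WT; their part in the Ndn result was not tested, and with ribosomal protein and mitochondrial genes left out the log2 fold change was 0.69 (adjusted p = 0.0379).

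The remaining members of the domain did not pass the test in any class. Snrpn, which encodes the spliceosomal protein SmN and shares its transcript with Snurf, had 108 and 115 CPM in KO excitatory neurons and 101 and 110 CPM in WT excitatory neurons. Ube3a had 969 and 901 CPM in KO and 951 and 824 CPM in WT, a log2 fold change of 0.07 ± 0.08 (adjusted p = 0.643, edgeR). The libraries of the genotypes overlapped for both genes. The log2 fold changes of Snrpn and Ube3a were 0.08 and 0.07. Snhg14, the long RNA that runs antisense to Ube3a and is no member, was called lower in oligodendrocytes. It had 105 and 96.5 CPM in KO and 149 and 158 CPM in WT there (log2 fold change -0.60, adjusted p = 0.0416, edgeR). The 7 excitatory marker genes summed to 659 and 788 CPM in KO oligodendrocytes and 826 and 953 CPM in WT oligodendrocytes. Whether RNA free in the preparation gave the Snhg14 UMIs of this class was not tested.

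**Figure D2:**
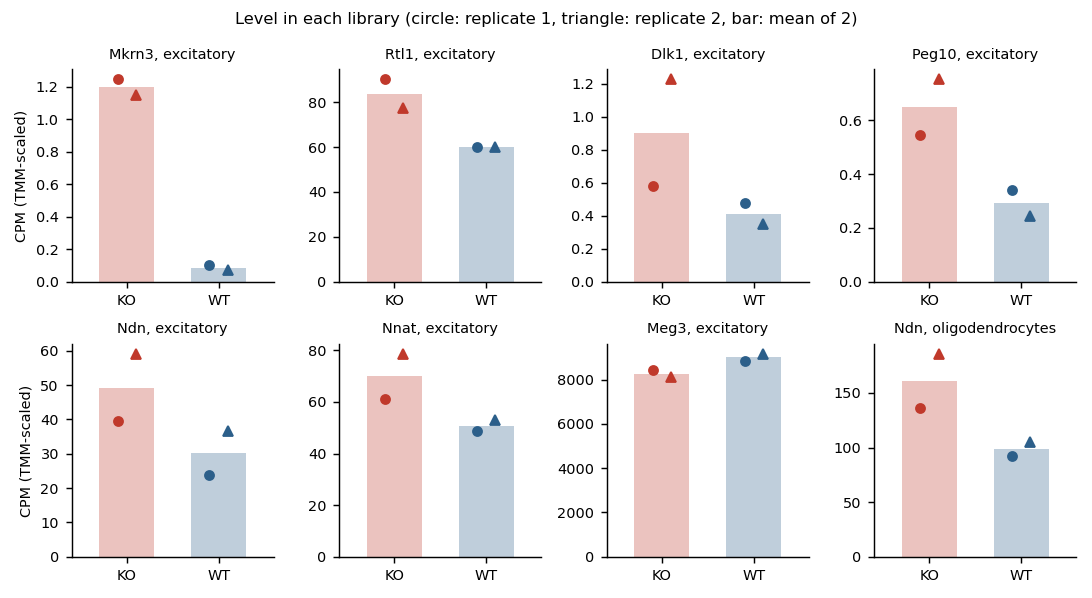
Level in TMM-scaled CPM (vertical axes from 0) of Mkrn3, Rtl1, Dlk1, Peg10, Ndn, Nnat and Meg3 in excitatory neurons and of Ndn in oligodendrocytes, KO left of WT; circles are replicate 1, triangles replicate 2 and bars the mean of the 2 libraries. Mkrn3 has KO libraries at 1.24 and 1.15 CPM far above WT libraries at 0.102 and 0.0703 CPM, Rtl1 has KO at 90.1 and 77.4 CPM above WT at 59.8 and 59.9 CPM, and Meg3 spans only 8116 to 9142 CPM over all 4 libraries.

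Rtl1 is the retrotransposon-derived gene of the Dlk1 to Dio3 domain, expressed from the paternal copy and known for its part in placenta and muscle. It lies at chr12:109589193-109600330 on the minus strand (GRCm38), and microRNA genes on its opposite strand are expressed from the maternal copy. Within Rtl1, 11 mature miRNAs from 6 hairpins lie on the other strand, and each is fully complementary to the annotated Rtl1 transcript; they were not measured, since 3′ counting of nuclear RNA does not capture mature miRNAs. The results turn on Rtl1, so 1 arm of each hairpin is printed, 5′ to 3′ from RefSeq on GRCm38.p6, with the seed (bases 2 to 8) in capitals: the RNA that carries them overlaps Rtl1.
mmu-miR-431-5p: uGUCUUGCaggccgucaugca
mmu-miR-433-3p: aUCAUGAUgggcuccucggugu
mmu-miR-127-3p: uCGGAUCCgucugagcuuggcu
mmu-miR-434-3p: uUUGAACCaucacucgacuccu
mmu-miR-432: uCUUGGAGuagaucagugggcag
mmu-miR-136-5p: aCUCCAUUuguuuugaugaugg
All 11 mature miRNAs have distinct seeds, so none shares a seed with another. Whether strand was used in counting is not given in the sources used here, and without it the UMIs of Rtl1 and of the RNA on its other strand cannot be told apart.

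Rtl1 rose in KO excitatory neurons. It had 90.1 and 77.4 CPM in KO and 59.8 and 59.9 CPM in WT, from 2318 and 1956 UMIs in KO and 1764 and 1705 UMIs in WT. Both KO libraries were clearly above the WT libraries, which lay close to each other, and KO replicate 1 was the higher of the KO pair. The log2 fold change was 0.48 ± 0.09 (adjusted p = 0.0249, edgeR), or 0.59 within the male pattern and 0.37 within the female pattern. The call was kept without each library in turn (adjusted p between 0.00242 and 0.0315) and was lost with no filter on low counts (adjusted p = 0.100).

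Rtl1 passed the test in 3 neuron subclasses, but no test compared the subclasses with each other. The calls therefore do not show that its change differs between layers. The subclasses are parts of the pooled classes and share the same libraries, so they are not independent repeats. Among 15 neuron subclasses or numbered clusters, 12 of them excitatory, Rtl1 was positive in 14 and had both KO libraries above both WT libraries in 11. It was called in 3: in layer 5 extratelencephalic (L5 ET) neurons, with 120 and 115 CPM in KO and 73.3 and 80.9 CPM in WT (log2 fold change 0.61, adjusted p = 0.0127; 1.71% of all genes called), in L5 IT neurons, with 86.0 and 81.1 CPM in KO and 59.1 and 54.6 CPM in WT (0.55, adjusted p = 0.0143; 4.01% of all genes called), and in layer 6 corticothalamic (L6 CT) neurons, with 93.2 and 70.0 CPM in KO and 54.1 and 53.2 CPM in WT (0.60, adjusted p = 0.0206; 3.89% of all genes called). The fold change was highest in layer 5/6 near-projecting neurons, at 0.76, with 131 and 139 CPM in KO and 68.3 and 91.1 CPM in WT, where it did not pass (adjusted p = 0.109). The exception in sign was cluster 24, an excitatory cluster with no subclass name, where both KO libraries were below both WT libraries, with 63.5 and 47.7 CPM in KO and 65.1 and 64.0 CPM in WT (-0.17, adjusted p = 0.926), on at most 39 UMIs a library. In layer 6b neurons the libraries overlapped, with 77.4 and 76.2 CPM in KO and 84.9 and 62.6 CPM in WT. In inhibitory neurons Rtl1 had 124 and 104 CPM in KO and 93.4 and 87.7 CPM in WT, a log2 fold change of 0.33 that did not pass (adjusted p = 0.174). The effect in excitatory neurons minus that in inhibitory neurons was 0.18 ± 0.09 (adjusted p = 0.641, edgeR interaction term), so no difference between the neuron classes was shown.

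Over all excitatory neurons together, none of the maternally expressed noncoding RNAs of the same domain passed the test. Meg3, at chr12:109541001-109571726, had 8434 and 8116 CPM in KO excitatory neurons and 8864 and 9142 CPM in WT excitatory neurons. Both KO libraries were below both WT libraries, by a log2 fold change of -0.12 ± 0.04 that did not pass (adjusted p = 0.0956, edgeR). Without KO replicate 1 it passed (-0.15, adjusted p = 0.0204), and without KO replicate 2 also (-0.10, adjusted p = 0.0393). Rian, the host of a snoRNA cluster, had 453 and 492 CPM in KO and 467 and 492 CPM in WT. Mirg, the host of a miRNA cluster, had 86.6 and 89.3 CPM in KO and 100 and 104 CPM in WT (log2 fold change -0.21, adjusted p = 0.161). Dlk1, a non-canonical Notch ligand expressed from the paternal copy, had 0.583 and 1.23 CPM in KO and 0.475 and 0.352 CPM in WT (1.12 ± 0.45, adjusted p = 0.201); it rests on 15 and 31 UMIs in KO and 14 and 10 in WT, and KO replicate 2 stood above the other libraries. Without KO replicate 1 the fold change of Dlk1 was 1.55 (adjusted p = 0.0378).

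Meg3 alone made up 54.3% to 58.0% of all UMIs of the 41 members in excitatory neurons. Together the members took 1.55% and 1.50% of excitatory UMIs in KO and 1.57% and 1.57% in WT. In inhibitory neurons they took 2.16% and 2.13% in KO and 2.16% and 2.13% in WT, and in oligodendrocytes 0.594% and 0.674% in KO and 0.655% and 0.713% in WT. These shares differed more between classes than between genotypes.

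In the other domains no member passed the test in excitatory neurons. Next to Mkrn3 and Rtl1, the members with the lowest p were Nnat and Plagl1. Nnat, the gene of neuronatin, a small membrane protein of the endoplasmic reticulum, lies at chr2:157560078-157562522 inside Blcap on the opposite strand. It had 61.3 and 78.4 CPM in KO and 48.8 and 53.0 CPM in WT (log2 fold change 0.46 ± 0.12, adjusted p = 0.0742, edgeR). The KO libraries were above the WT libraries, KO replicate 2 the more so; without KO replicate 1 the adjusted p was 0.00129, without WT replicate 2 it was 0.0305, and DESeq2 gave 0.0311. Plagl1, a zinc finger transcription factor, had 4.04 and 3.64 CPM in KO and 5.56 and 5.94 CPM in WT (-0.58 ± 0.16, adjusted p = 0.0822).

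Among the members with the highest counts in excitatory neurons, differences were small. Snhg11 is grouped here with Nnat but lies apart from it on chromosome 2, at chr2:158375638-158386145, and GENCODE vM21 types it as protein-coding. It had 3134 and 3114 CPM in KO and 3382 and 2964 CPM in WT. Ppp1r9a, which encodes the actin-binding protein neurabin, had 377 and 373 CPM in KO and 432 and 424 CPM in WT (log2 fold change -0.19, adjusted p = 0.160, edgeR). Kcnq1ot1, the antisense RNA of its domain, had 302 and 324 CPM in KO and 338 and 351 CPM in WT (-0.14, adjusted p = 0.330). For Ppp1r9a and Kcnq1ot1 both KO libraries were below both WT libraries, whereas those of Snhg11 overlapped. Usp29, a ubiquitin-specific protease family gene next to Peg3, had 203 and 231 CPM in KO and 179 and 193 CPM in WT (0.23, adjusted p = 0.183); without KO replicate 1 it passed (0.31, adjusted p = 0.0378). Its neighbour Peg3, a zinc finger gene, lay on the other side, with both KO libraries below both WT libraries, at 139 and 128 CPM in KO and 162 and 145 CPM in WT (-0.20, adjusted p = 0.228). Gnas, the gene of the stimulatory G protein alpha subunit, had 170 and 169 CPM in KO and 175 and 178 CPM in WT (-0.06, adjusted p = 0.687).

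The low members gave large fold changes with large errors. Peg10, another retrotransposon-derived gene, had 0.544 and 0.752 CPM in KO and 0.339 and 0.246 CPM in WT (log2 fold change 1.13 ± 0.42, adjusted p = 0.172, edgeR), and it passed the filter through its KO libraries alone. Igf2, the fetal growth factor, had 0.311 and 0.277 CPM in KO and 0.611 and 0.562 CPM in WT (-0.99 ± 0.41, adjusted p = 0.213), and it passed the filter through its WT libraries alone. Both genes rest on at most 19 UMIs a library. Cdkn1c, an inhibitor of cyclin-dependent kinases in the Kcnq1ot1 domain, had 1.63 and 1.38 CPM in KO and 1.05 and 0.808 CPM in WT (0.69, adjusted p = 0.204). H19, Asb4 and Calcr were not tested, with at most 9 UMIs in any library.

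Of the members not yet named, 17 were tested and all lay between -0.30 and 0.71 on the log2 scale. In the Grb10 domain, Grb10, an adaptor that dampens insulin signalling, was at 0.10 and Ddc, the aromatic amino acid decarboxylase, at 0.71. In the Igf2r domain, Igf2r, the receptor that clears IGF2, was at 0.18 and its antisense RNA Airn at 0.21. The Peg13 domain, with the noncoding RNA Peg13, the trafficking gene Trappc9 and the potassium channel gene Kcnk9, spanned -0.11 to -0.01. Zdbf2, with 19.1 and 11.5 CPM in KO and 20.8 and 16.9 CPM in WT, had the lowest value, -0.30. Zrsr1, a splicing factor gene inside Commd1 on the other strand, was at 0.23 with both KO libraries above both WT libraries. Mest, Impact, Inpp5f, Nap1l5, Commd1, Blcap, Sgce and Zim1 lay between -0.13 and 0.33. Where a member overlaps a gene on the other strand (Igf2r with Airn, Nnat with Blcap, Zrsr1 with Commd1, Nap1l5 with Herc3, Ube3a with Snhg14), their reads cannot be told apart unless strand was used in counting.

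In the other 9 classes that could be tested, 197 pairs of a member and a class gave 1 call, Ndn in oligodendrocytes. Without adjustment 15 pairs had p under 0.05 as higher and 4 as lower in edgeR, for which the share of all genes was not counted. DESeq2 called 0 pairs. The share of all genes called was 1.2% in inhibitory neurons, 0.328% in astrocytes, 0.0778% in microglia, 0.0217% in oligodendrocyte precursors and 0% in committed precursors, endothelial cells, mural cells and fibroblasts, so the tests in the small classes gave few calls of any gene. Both KO libraries were above both WT libraries for 9 of 31 members in inhibitory neurons (22.6% of all genes) and for 8 of 31 in oligodendrocytes (22.1% of all genes). The count of calls was 7 without KO replicate 1, 6 without KO replicate 2 and 2 without WT replicate 2; those added without KO replicate 1 were higher, Nnat and Ndn in astrocytes and inhibitory neurons and Nnat in oligodendrocytes and fibroblasts. Of the 6 without KO replicate 2, 4 were lower (Meg3 in astrocytes, inhibitory neurons and oligodendrocytes and Rian in astrocytes) and 2 higher (Ndn in astrocytes and Rtl1 in inhibitory neurons).

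Like Ndn, Nnat was positive in 7 of 7 classes, between 0.38 in oligodendrocyte precursors and 0.92 in fibroblasts, and both KO libraries were above both WT libraries in 5. The classes share the same libraries, and the share of all genes with 1 sign in every class was not counted. In astrocytes Nnat had 116 and 153 CPM in KO and 76.2 and 76.5 CPM in WT (log2 fold change 0.82, adjusted p = 0.131, edgeR). In astrocytes Ndn had 110 and 126 CPM in KO and 49.4 and 70.6 CPM in WT (0.98, adjusted p = 0.0906). The make-up of the astrocytes differed by genotype: 1 cluster of the class, cluster 32, held 199 of 668 and 364 of 847 astrocytes in KO and 20 of 1048 and 35 of 1022 in WT. Without that cluster, a setting chosen after seeing the data, both genes were called in astrocytes, Nnat at 0.83 (adjusted p = 0.0312) and Ndn at 0.99 (adjusted p = 0.0209). In the opposite direction, Meg3 was negative in all 10 classes, between -0.59 in fibroblasts and -0.06 in inhibitory neurons. Whether free RNA gave the glial UMIs of Meg3, Ndn and Nnat was not tested, as described with the levels between classes. Ppp1r9a was negative in all 9 classes that tested it, with both KO libraries below both WT libraries in 7. Ribosomal protein genes took 1.08% and 1.14% of astrocyte UMIs in KO and 0.744% and 0.872% in WT, and their part in these directions was not tested.

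**Figure D3:**
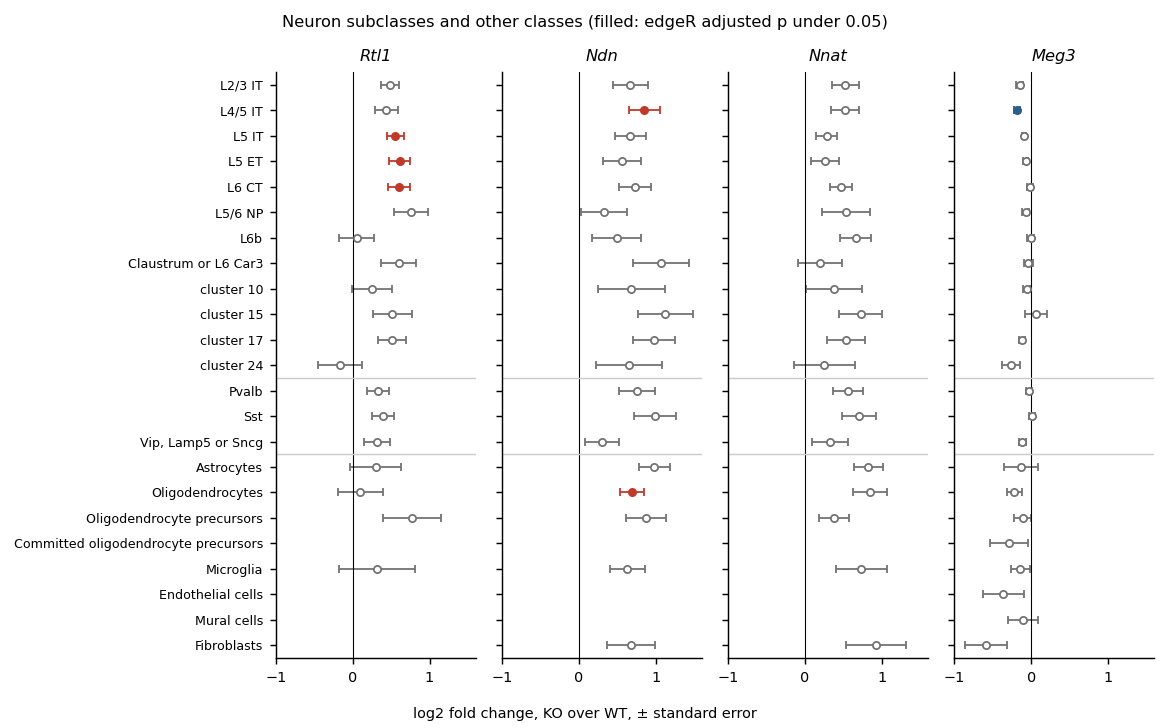
Log2 fold change (KO over WT, horizontal axes, bars of 1 standard error from edgeR) of Rtl1, Ndn, Nnat and Meg3 in each neuron subclass or numbered cluster and each other class, down the page; filled points mark an adjusted p under 0.05, and a missing point was not tested. Rtl1 is filled in L5 ET, L5 IT and L6 CT neurons, Ndn in L4/5 IT neurons and oligodendrocytes and Meg3 in L4/5 IT neurons, while Ndn and Nnat lie above 0 throughout.

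Over the neuron subclasses, 431 pairs of a member and a subclass gave 5 calls, 3 of them Rtl1; over all genes 1.67% of such pairs were called. The other 2 were in layer 4/5 intratelencephalic (L4/5 IT) neurons, where 2.04% of all genes were called. There Ndn had 58.6 and 70.9 CPM in KO and 28.2 and 44.6 CPM in WT (log2 fold change 0.85, adjusted p = 0.0317, edgeR), and Meg3 had 8123 and 7451 CPM in KO and 8700 and 8987 CPM in WT (-0.18, adjusted p = 0.0147). Ndn was positive in all 15, between 0.30 and 1.12, and Nnat was positive in all 15, between 0.20 and 0.72, with 0 calls. These groups share the same libraries, and the share of all genes positive in all 15 was not counted. Meg3 was positive in 2 and negative in 13. The count of calls was 33 without KO replicate 1 and 12 without WT replicate 2.

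No member's genotype effect was shown to differ between excitatory neurons and another class. Over 9 contrasts and 317 pairs tested with an edgeR interaction term, 0 members passed, and 6 pairs were higher and 7 lower in excitatory neurons at an unadjusted p under 0.05. Over all genes 0.24% of such pairs passed after adjustment, and their unadjusted share was not counted. The lowest adjusted p among the members was 0.192, for Rian against oligodendrocytes. Mkrn3 differed by 1.41 ± 1.09 on the log2 scale between excitatory and inhibitory neurons (adjusted p = 0.822), an error too wide to separate a like change from none. Without KO replicate 2 the count of members was 2.

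The level of the members themselves differed widely between classes, in edgeR fits with the library as a term. Against inhibitory neurons, 5 of 34 tested members were higher in excitatory neurons and 23 lower (22.8% of all genes higher and 22.3% lower). The highest log2 ratios to inhibitory neurons were those of the potassium channel gene Kcnk9 (1.43), Zdbf2 (0.80) and Ppp1r9a (0.80), and the lowest were those of the zinc finger gene Zim1 (-2.05), Mkrn3 (-1.09) and Usp29 (-1.04). Kcnk9 had 43.7 and 45.9 CPM in KO excitatory neurons and 44.8 and 49.4 CPM in WT excitatory neurons, against 18.3 and 19.8 CPM in KO inhibitory neurons and 14.2 and 20.6 CPM in WT inhibitory neurons. The classes did not overlap for Kcnk9 in either genotype. Meg3, Rian, Mirg and Rtl1 were lower in excitatory than in inhibitory neurons, with log2 ratios of -0.42, -0.37, -0.58 and -0.42.

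Against the glial classes, the members divided more evenly. In excitatory neurons 16 of 35 members were higher and 12 lower than in astrocytes (30% of all genes higher and 28.4% lower), 18 of 34 higher and 13 lower than in oligodendrocytes (35.6% and 32.7%), 14 of 33 higher and 10 lower than in oligodendrocyte precursors (24.7% and 20%), and 15 of 32 higher and 8 lower than in microglia (33.5% and 26.7%). Ube3a was among the 3 highest log2 ratios in all 4 glial contrasts (2.36 to astrocytes, 2.62 to oligodendrocytes, 2.31 to precursors and 2.57 to microglia). Usp29 was at 2.17 to astrocytes, 2.38 to oligodendrocytes and 2.72 to microglia, Grb10 at 2.10 to astrocytes and 2.10 to oligodendrocytes, Mirg at 2.31 and Rian at 1.96 to precursors, and Airn at 2.70 to microglia. These high ratios have to be set beside the free RNA of the preparation. The 7 excitatory marker genes themselves reached 39.9% and 48.4% of their excitatory level in KO oligodendrocytes and 46.3% and 53.2% in WT oligodendrocytes, a log2 ratio of 0.91 to 1.33, and in astrocytes their log2 ratio was 1.09 to 1.71. Ube3a, Usp29, Grb10, Meg3, Rian, Mirg and Rtl1 were below that share in both classes, so their glial UMIs are not read as expression there. How much of each RNA was free in the preparation was not measured, so whether free RNA gave these UMIs was not tested.

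Several members instead had a higher CPM in glia. Ddc had 1.13 and 1.66 CPM in KO excitatory neurons and 0.645 and 1.05 CPM in WT excitatory neurons, against 36.3 and 42.3 CPM in KO oligodendrocytes and 46.3 and 39.4 CPM in WT oligodendrocytes, a log2 ratio of -4.96 ± 0.20. Plagl1 (-2.28) and Inpp5f, an inositol phosphatase gene (-2.04), followed in oligodendrocytes. Inpp5f had 39.3 and 37.1 CPM in KO excitatory neurons and 39.3 and 36.1 CPM in WT excitatory neurons, against 201 and 185 CPM in KO oligodendrocytes and 189 and 176 CPM in WT oligodendrocytes. These 3 genes thus separated oligodendrocytes from excitatory neurons in every library of either genotype. Zim1 was lowest against astrocytes (-3.10), followed there by Dlk1 (-2.19) and Ndn (-0.88). Against precursors the lowest were Zim1 (-2.64), Ndn (-0.93) and Zrsr1 (-0.80), and against microglia Ndn (-1.34), Zrsr1 (-1.29) and the nucleosome assembly gene Nap1l5 (-1.12). In every library a smaller share of nuclei held an Ndn UMI in microglia and astrocytes than in excitatory neurons. In WT this share was 7.05% and 11.9% of microglia and 7.25% and 9.78% of astrocytes, against 9.81% and 13.2% of excitatory neurons. Precursors had a smaller share too, except in KO replicate 2. Glial nuclei held fewer UMIs, so a higher CPM there does not mean more Ndn UMIs per nucleus. Whether free RNA gave the glial UMIs of Ndn, Zim1, Dlk1, Zrsr1 and Nap1l5 was not tested. Airn was highest in mural cells, the contractile cells of vessel walls, at 1095 and 921 CPM in KO and 652 and 769 CPM in WT, and so was Igf2r, at 741 and 639 CPM in KO and 461 and 445 CPM in WT. Neither mural difference by genotype passed the test (adjusted p = 0.595 for Airn and 0.547 for Igf2r, edgeR), on 47 and 76 KO nuclei and 83 and 64 WT nuclei.

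**Figure D4:**
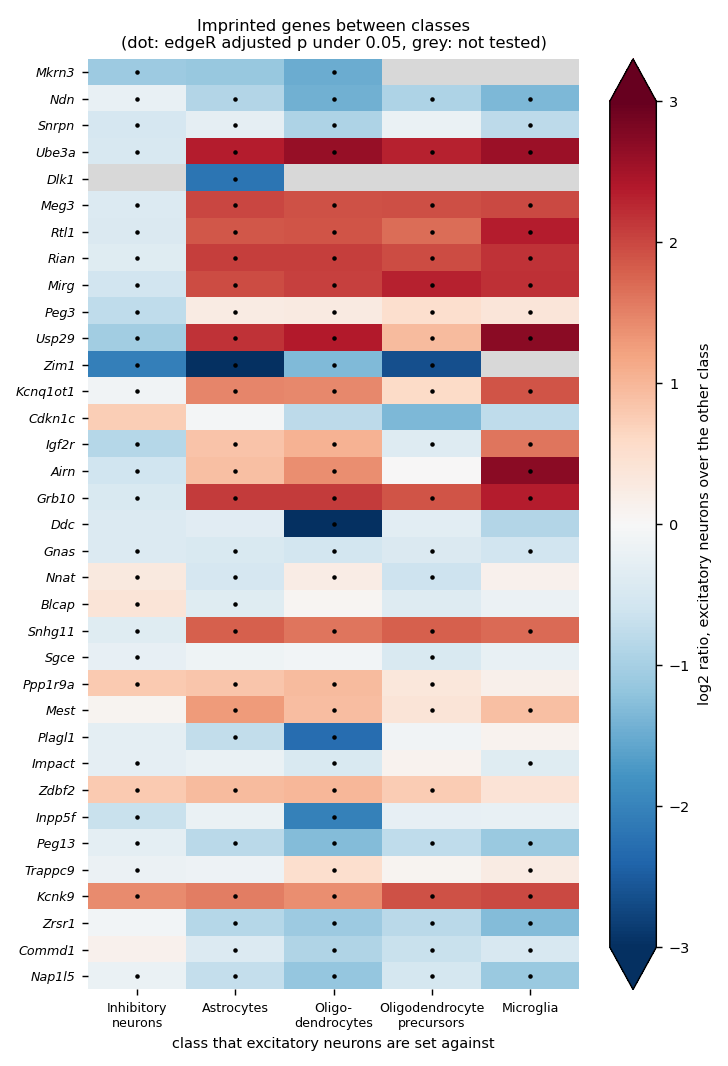
Log2 ratio of excitatory neurons over each of 5 other classes (across, colour scale) for the imprinted genes (down the page); dots mark an edgeR adjusted p under 0.05 and grey was not tested. Ube3a is high against all 4 glial classes, at 2.31 to 2.62, and Ddc is lowest against oligodendrocytes, at -4.96, beyond the end of the colour scale.

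Of 315 genes in the matrix whose start lies within 500 kb of a member's start, 197 were tested in excitatory neurons; 10 were called higher and 3 lower, beside 3.11% and 1.37% of all genes. The count was 29 without KO replicate 1. Only 1 of the 13 lay in the domain of a called member: Gm32061, a noncoding RNA that starts 3.106 kb upstream of Mkrn3 on the same strand and overlaps it. It had 2.99 and 2.49 CPM in KO and 0.407 and 0.0703 CPM in WT (log2 fold change 3.48 ± 0.46, adjusted p = 0.00380, edgeR), with 12 and 2 UMIs in WT. Since Gm32061 and Mkrn3 overlap on 1 strand, how their reads were divided cannot be told from the counts; Gm32061 also covers Ndn and Magel2 on the other strand. None of the 5 genes tested near the Dlk1 to Dio3 domain was called.

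The other changes near members lay beside domains whose own members were not called. Near Inpp5f, Rgs10, a regulator of G protein signalling 193 kb away, had 22.9 and 22.8 CPM in KO and 6.58 and 8.12 CPM in WT (log2 fold change 1.64, adjusted p = 0.000294, edgeR). It was also higher in astrocytes (1.77, adjusted p = 0.0314), oligodendrocytes (1.12, adjusted p = 0.0335) and inhibitory neurons (0.82, adjusted p = 0.0442). Inpp5f itself was at 0.02 in excitatory neurons. In the Kcnq1ot1 domain, the decoy receptor gene Tnfrsf22 had 3.73 and 3.76 CPM in KO and 0.577 and 0.492 CPM in WT (2.80, adjusted p = 0.000387), and E230032D23Rik, 167 kb from Cdkn1c, had 10.3 and 13.1 CPM in KO and 4.85 and 5.34 CPM in WT (1.20, adjusted p = 0.00425). In inhibitory neurons E230032D23Rik had 14.1 and 18.8 CPM in KO and 2.46 and 3.11 CPM in WT (2.55, adjusted p = 0.000336), and Tnfrsf23 had 14.1 and 18.3 CPM in KO and 3.19 and 3.59 CPM in WT (2.25, adjusted p = 0.000566). Every KO library was above every WT library for each of these genes. Pnldc1, a poly(A)-specific ribonuclease gene 141 kb from Igf2r, had 17.1 and 14.4 CPM in KO and 8.48 and 8.15 CPM in WT (0.92, adjusted p = 0.00659). Gm12059, near Commd1, fell to 1.44 and 2.33 CPM in KO, against 5.43 and 5.55 CPM in WT (-1.54, adjusted p = 0.00761).

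**Figure D5:**
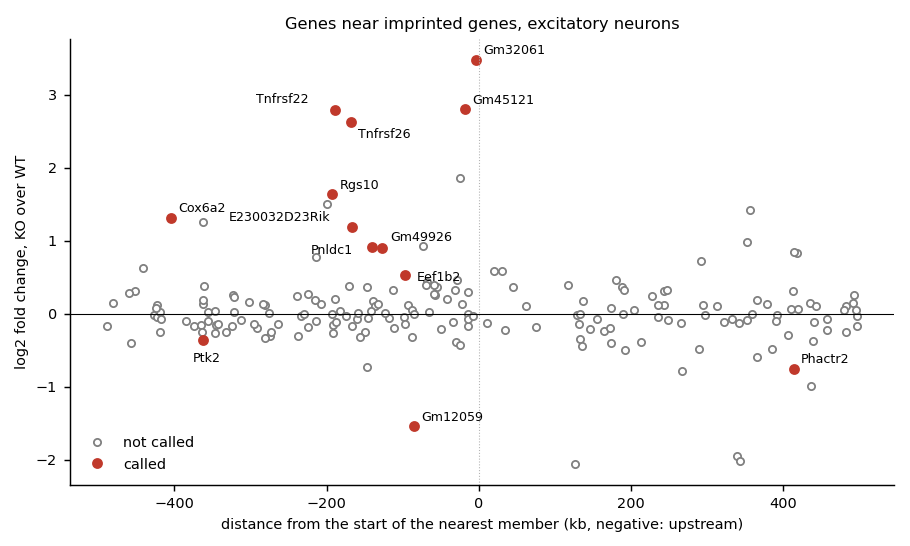
Log2 fold change (KO over WT, vertical axis) in excitatory neurons of genes near a member, against the distance of their start from that member's start in kb (horizontal axis, negative upstream), with called genes named. Most of the 197 points lie close to 0; Gm32061 stands beside Mkrn3 at 3.48 and Rgs10 upstream of Inpp5f at 1.64.

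A further list of 42 imprinted genes outside the 41 gave 29 tested in excitatory neurons, of which 0 were higher and 2 lower, beside 3.11% and 1.37% of all genes. Sfmbt2, a Polycomb-group gene, had 11.2 and 10.6 CPM in KO and 17.8 and 17.2 CPM in WT (log2 fold change -0.68, adjusted p = 0.0142, edgeR). Htr2a, the serotonin 2A receptor gene, had 31.1 and 22.5 CPM in KO and 41.7 and 43.6 CPM in WT (-0.67, adjusted p = 0.0399). In both genes the KO libraries were below the WT libraries, and Htr2a was also lower in oligodendrocytes (-1.71, adjusted p = 0.0331, edgeR). Whether free RNA gave the Htr2a UMIs of oligodendrocytes was not tested. The count was 6 without KO replicate 1. Of 38 genes of imprint maintenance and H3K9 methylation, 34 were tested and 1 was called, beside 4.49% of all genes. This was Atf7ip, which encodes a partner that stabilises SETDB1. It had 120 and 125 CPM in KO and 64.0 and 72.0 CPM in WT (0.85 ± 0.09, adjusted p = 0.000877), and in inhibitory neurons 110 and 124 CPM in KO and 64.4 and 76.2 CPM in WT (0.73, adjusted p = 0.00260). That count was 3 without KO replicate 1, 2 without WT replicate 2 and 2 without KO replicate 2.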

How the data were processed

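The authors deposited UMI counts per gene and nucleus, per the submitters' processing notes with Cell Ranger 7.1.0 and the mm10 genome; whether introns, strand or free-RNA removal were used is not given in the sources used here. The members and all lists were chosen with earlier results of these data known. Nuclei were kept from 500 UMIs and 300 genes upward with a mitochondrial share of up to 5%, Scrublet doublets removed (4.14% to 5.11% per library), and the rest clustered with scanpy 1.11.5 (2000 variable genes without the members, 30 components, Leiden resolution 1); clusters with at least 3 detected markers of a list were named, and 6 of 33 clusters stayed unnamed. UMIs were summed per library and class with at least 30 nuclei in every library. Main tests used edgeR 4.0.16 in R 4.3.3 (filterByExpr, TMM scaling, quasi-likelihood, Benjamini-Hochberg over all genes tested in that fit, threshold 0.05); printed CPM are counts scaled to the library total after TMM scaling, and the standard error is the log2 fold change over the root of F. DESeq2 1.42.0 and limma 3.58.1 (voom) were alternatives. The fits were tested on simulated data. Of changes of 1 on the log2 scale, they recovered 75% in excitatory neurons, 77% in inhibitory neurons, 54% in astrocytes and 65% in oligodendrocytes. In excitatory neurons 12 of 182 calls were false, and in inhibitory neurons 16 of 187. The simulated libraries were independent and the changed genes left out those with the fewest UMIs, so genes as low as Mkrn3 in small classes were not covered. With 2 mice per genotype, each depth above limits precision, and counting intervals are exact (Clopper-Pearson form).

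Full values are given for members called in any class, the 8 members with the highest mean CPM in excitatory neurons, and members with at least 1 UMI in every library, separated genotypes and a 2-fold difference there; members that were named beyond this rule (Magel2, Nnat, Plagl1, Igf2, Cdkn1c, Mirg, Peg3, Snrpn, Zdbf2) were chosen after their values were seen. Of nearby and further genes at most 6 per list in excitatory neurons and 2 per other class, by smallest p, are named. Positions are from GENCODE vM21 (GRCm38), which holds 32158 of the 32285 identifiers and all 41 members.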

Additional observations from a re-analysis of the deposited data

How the results depend on the processing

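For 35 results, 403 values were recomputed under alternatives; 352 kept their direction, their side of the threshold and, for counts, stayed within 1.5 times. Mkrn3 was called in all 14 alternatives (log2 fold change 3.27 to 3.996, adjusted p 0.000145 to 0.0160) and Rtl1 in 13 of 14, not with no filter on low counts (adjusted p = 0.100). That setting also gave 1 member higher, 286 genes, 6 nearby genes and 0 further imprinted genes called in excitatory neurons and 2 members in other classes (Ndn and Nnat in astrocytes). The Ndn call in oligodendrocytes was lost with no filter (adjusted p = 0.122), with nuclei of at least 1000 UMIs (0.203), with doublets kept (0.0814), with DESeq2 and without WT replicate 1 or KO replicate 2. Members called in other classes numbered 0 with DESeq2, 0 with at least 1000 UMIs, 3 with doublets kept and 3 for astrocytes without cluster 32, the last chosen after seeing the data. Leaving out each replicate gave 2 to 7 members higher and 0 to 2 lower in excitatory neurons, 732 to 2177 genes, 12 to 29 nearby genes, 2 to 6 further imprinted genes, 1 to 3 factors, 1 to 7 members in other classes, 6 to 33 in subclasses and 0 to 2 differing between classes; the highest counts came without KO replicate 1, except the last, without KO replicate 2. Members near 0 changed sign without a library: Snhg11 (range -0.119 to 0.0716, the highest without WT replicate 1), Ube3a (-0.0302 to 0.179, the lowest without WT replicate 2) and Rian (-0.0868 to 0.0322, above 0 without WT replicate 2 or KO replicate 1). The cause was not tested.

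The replicate numbers are not said to pair animals, but same-numbered libraries shared a sex-linked RNA pattern and their deviations correlated in excitatory neurons (r = 0.634 over 11994 genes; with 2 libraries a group the crossed value is its negative, -0.634). With the replicate block, 5 members were higher (Mkrn3, Rtl1, Ndn, Nnat, Usp29) and 5 lower (Meg3, Ppp1r9a, Peg3, Mirg, Plagl1) in excitatory neurons, 3189 genes, 38 nearby genes, 6 further imprinted genes and 5 factors were called there, and members were called 9 times in other classes and 29 times in subclasses. Depth limits Mkrn3, Magel2, Dlk1, Peg10 and Igf2, which rest on few UMIs, and the small classes; with 2 mice per genotype, small differences such as that of Meg3 stay near the threshold.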
